A study of Mus musculus with 60 samples.

Results

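The genes described here encode the proteins of the cytosolic ribosome in mouse embryonic stem cells. Members were chosen by gene symbol: Rpl or Rps, then digits, then at most the single letter a or x, together with Rplp0, Rplp1, Rplp2 and Rpsa, and without pseudogenes. This gave 76 of the 50559 genes in the table of raw counts, 46 of the large subunit and 30 of the small subunit. The rule leaves out genes such as Rps3a1 and Fau, which also encode ribosomal proteins, and tissue-restricted paralogues such as Rpl10l and Rpl39l. In all, 75 members had enough reads to be tested among 15083 genes.

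Each ribosome carries 1 copy of nearly every protein of its small and large subunit around a core of ribosomal RNA, and the acidic proteins Rplp1 and Rplp2 form a stalk on the large subunit that binds elongation factors. Assembly of the subunits begins in the nucleolus, where RNA polymerase I makes the ribosomal RNA precursor. Assembly depends on a large set of biogenesis factors, many of them targets of the transcription factor Myc. Ribosomal protein mRNAs are short, abundant and stable, and most begin with a run of pyrimidines at the transcription start, the 5′ TOP element, through which the mTOR kinase and the protein Larp1 control their translation.

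Polyadenylated RNA was measured in 4 lines grown in serum with LIF on gelatin: 1A and the independently derived V19, both wild type, and 2 Cas9-edited knockouts made in 1A, a single line each, that lack Ezh2 or Eed, core subunits of Polycomb repressive complex 2. The pair of inhibitors called 2i, CHIR99021 at 3 µM against the kinase GSK3 and PD0325901 at 1 µM against the kinase MEK, was added to the same medium for 0, 12, 24, 48 or 96 h and renewed daily. The 4 lines and 5 times make 20 groups of 3 libraries described as biological replicates, 60 in all. The labels do not say whether the replicates were separate experiments, so p-values measure the spread between these samples.

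Library totals were 2561169 to 11065948 assigned reads, with a median of 6055990. Ezh2 was at 14.5 to 19.9 CPM in Ezh2 knockout libraries, and Eed was at 15.3 to 28.2 CPM in Eed knockout libraries, below every library of the other lines. CPM is the count scaled to library size with TMM factors, and it is a level relative to the other genes in a library: fewer cells of a type and less RNA per cell cannot be told apart. Replicate 2 of V19 at 48 h stood apart from all other libraries and is named beside the levels of its group. It also entered the fit over all 20 groups, the means over 60 libraries and the correlations between libraries. In Eed knockout at 0 h, 12 of 12 primitive endoderm markers and 10 of 10 trophoblast markers were called higher than in 1A wild type. Of all tested genes, 26.4% were called higher and 23.3% lower in that comparison. The summed primitive endoderm markers were 5844 to 6188 CPM in Eed knockout at 0 h against 750 to 823 CPM in 1A wild type, and embryonic stem cell markers, 7 of 10 lower and 1 higher, were 4735 to 4968 CPM against 6412 to 6602 CPM. Fibroblast and feeder markers, 6 of 8 higher and 2 lower, stood at 50.5 to 60.2 CPM against 39.9 to 43.4 CPM.

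The proximal promoters below belong to members called at 12 h in several lines, with or without a correction for gene length. Others belong to the paralogue pairs Rpl10 with Rpl10l and Rpl39 with Rpl39l. All were taken from RefSeq on build GRCm38.p6, which had entries for 56 of the 76 members (the entry listed for a gene first was used). Rpl3 and Rps20, which were chosen in the same way, had no entry. Each line runs from 50 bases before the annotated start to the first 20 bases after it, 5′ to 3′ on the gene's strand. Capitals mark the longest run of C or T within 25 bases of the start where it has at least 7 bases.
Rpl10a: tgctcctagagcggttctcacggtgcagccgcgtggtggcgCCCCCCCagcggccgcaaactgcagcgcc
Rpl12: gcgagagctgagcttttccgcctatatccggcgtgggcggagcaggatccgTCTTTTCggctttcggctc
Rpl13a: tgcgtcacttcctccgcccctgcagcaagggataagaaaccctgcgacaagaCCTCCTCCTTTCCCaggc
Rpl5: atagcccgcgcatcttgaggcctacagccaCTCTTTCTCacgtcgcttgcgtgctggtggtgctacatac
Rps3: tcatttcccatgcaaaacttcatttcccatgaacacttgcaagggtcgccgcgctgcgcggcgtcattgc
Rps6: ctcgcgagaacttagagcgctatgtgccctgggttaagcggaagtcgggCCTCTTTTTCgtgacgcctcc
Rplp2: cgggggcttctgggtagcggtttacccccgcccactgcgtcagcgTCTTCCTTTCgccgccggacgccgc
Rps10: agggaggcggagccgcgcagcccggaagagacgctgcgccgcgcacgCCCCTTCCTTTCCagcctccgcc
Rpl10: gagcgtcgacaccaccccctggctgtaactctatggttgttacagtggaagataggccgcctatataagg
Rpl10l: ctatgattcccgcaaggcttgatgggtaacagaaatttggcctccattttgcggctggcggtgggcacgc
Rpl39: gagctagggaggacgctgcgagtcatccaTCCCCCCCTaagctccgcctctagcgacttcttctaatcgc
Rpl39l: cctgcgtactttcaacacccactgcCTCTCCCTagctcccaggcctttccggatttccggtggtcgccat

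The windows lie at chr17:28328421-28328490 (plus strand) for Rpl10a, chr2:32961662-32961731 (plus) for Rpl12, chr7:45128726-45128795 (minus) for Rpl13a, chr5:107900478-107900547 (plus) for Rpl5, chr7:99483690-99483759 (minus) for Rps3, chr4:86857348-86857417 (minus) for Rps6, chr7:141447601-141447670 (plus) for Rplp2, chr17:27635225-27635294 (minus) for Rps10, chrX:74270766-74270835 (plus) for Rpl10, chr12:66284382-66284451 (minus) for Rpl10l, chrX:37085203-37085272 (minus) for Rpl39 and chr16:10170178-10170247 (plus) for Rpl39l. A pyrimidine run of at least 7 bases within 25 bases of the start was found in 32 of 56 members (57.1%) and in 29.2% of 27025 genes with an entry. Windows of 300 bases, 250 before the start and 50 after it, were searched on both strands for 4 exact motifs, none of which contains another, although CTTTTC can lie inside a pyrimidine run. CCGGAAGT, the core bound by ETS-family factors, was present in 19.6% of members against 4% of all genes, AAGATGGC in 7.14% against 2.88%, CTTTTC in 26.8% against 21.8%, and TATAAA in 8.93% against 14.2%. These are matches of letters, given as a description of the promoters.

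Members were among the most abundant transcripts in every line. Per kilobase of exon, the tested members had a median of 951 CPM over 60 libraries against 4.98 CPM for all tested genes, and they made up 54 of the 100 genes with the highest level per kilobase. Rplp1, a stalk protein, led at 4140 CPM per kilobase. It was followed by Rpl8 at 3120, Rpl41, the smallest protein of the ribosome, at 2576, Rps14 at 2559 and Rpl12 at 2434 CPM per kilobase. Among the lowest were Rpl28 at 8.07, Rps15a at 112, Rpl29 at 184 and Rpl15 at 245 CPM per kilobase.

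A low level does not carry the same weight for each of these genes, because the listed exon length adds up all annotated exons. Rps15a has 5136 listed exon bases and Rps20 has 3446, against a median of 808 for tested members and 3620 for all tested genes. Of the exon bases of Rpl28, 89.3% lie within a gene annotated on the opposite strand. In all, 19 members share an exon base with another gene. Reads over such bases are not attributed to strands in the sources used here, so the level of Rpl28 is uncertain. Ribosomal protein pseudogenes form 319 rows of the table with counts equal to 0.464% of those in members, and how reads shared between near-identical copies were assigned is not given in the sources used here.

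The members together took between 4.84 and 13.7% of assigned reads, and in each of the 4 lines the share was higher at 12 h than at 0 h. In 1A wild type it was 6.07, 5.78 and 5.46% in the 0 h libraries and 8.05, 8.04 and 8.35% at 12 h. The V19 libraries held 6.44, 7.40 and 6.39% at 0 h and 8.91, 8.37 and 9.91% at 12 h. The Eed knockout libraries held 5.28, 5.65 and 4.99% at 0 h and 8.58, 7.74 and 7.83% at 12 h. In Ezh2 knockout the 12 h libraries were far apart, at 10.03, 8.20 and 6.997% after 6.47, 6.58 and 5.91% at 0 h. By this share no 12 h library lay within the 0 h range of its line. By the median log2 level over the members (each gene's log2 level minus its mean over 60 libraries), replicate 3 of Ezh2 knockout at 12 h was at -0.181, within the range of that line at 0 h, -0.184 to -0.016.

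The shares after 12 h were not tested between lines. At 24 h the libraries of 1A wild type held 6.47, 9.47 and 9.53%, 1 of them close to the 0 h range, and those of Eed knockout 5.22, 5.26 and 7.48%, 2 of them within it. V19 held 6.96, 7.37 and 6.95%, within its 0 h range, and Ezh2 knockout 6.94, 8.50 and 6.90%. 1A wild type was at 9.09, 9.35 and 8.91% at 48 h and at 5.71, 5.88 and 6.31% at 96 h, which overlaps its 0 h range. Eed knockout was at 4.86, 5.53 and 4.84% at 48 h, which overlaps its 0 h range, and at 5.38, 5.94 and 5.67% at 96 h. Ezh2 knockout stood between them at 48 h with 7.84, 7.78 and 7.50%, and had 7.65, 6.16 and 6.41% at 96 h. V19 held 8.33, 13.7 and 7.30% at 48 h, where the middle value is the library that stood apart, and 5.62, 5.93 and 5.97% at 96 h. V19 at 48 h, the group that holds this library, had the highest of the 20 group means for 55 members, while 51 members had their lowest group mean in Eed knockout at 48 h.

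**Figure D1:**
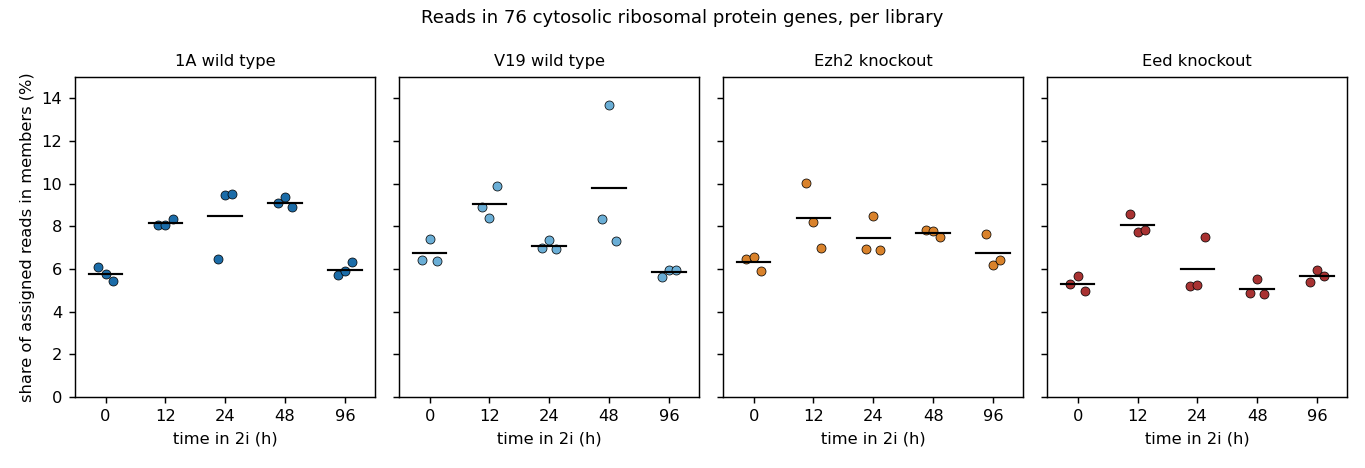
Share of assigned reads (%, vertical axis) in the 76 members against time in 2i (h), 1 panel per line, with 1 point per library and a line at the mean of 3 libraries. The 12 h points of 1A wild type, 8.04 to 8.35%, lie above its 0 h points of 5.46 to 6.07%, and the point at 13.7% is replicate 2 of V19 at 48 h.

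The spread of the members between libraries followed that of other short genes and of several lists not chosen by length. The level of a list in a library is given as the median over its genes of the log2 level minus that gene's mean over 60 libraries. Replicate 2 of V19 at 48 h was at 1.31 for members, at 0.77 for 978 genes outside the list with under 1000 exon bases, and at -0.40 for 5003 genes outside the list with over 5000. In 19 of 20 groups 1 and the same library was highest for both members and short genes, and in 18 of 20 the same library was lowest for both. Over the 60 libraries, which share depth, normalization and preparation, Pearson's r between members and short genes was 0.90 (Spearman's rho 0.89), and 0.87 without the 2 libraries farthest from the median. The same r for deviations from the group means was 0.97. With translation factors and other 5′ TOP genes r was 0.91, and 0.98 for such deviations. It was 0.92 and 0.97 with nuclear oxidative phosphorylation subunits, and 0.91 and 0.98 with mitochondrial ribosomal protein genes. With a list of paralogues, other excluded ribosomal protein genes and relatives such as Mrto4, r was 0.94 and 0.97. Over the 60 libraries the remaining lists were lower, such as ribosome biogenesis factors at 0.39. The part of gene length in these relations was not tested. Because the members are short, their changes are given below with and without a correction for gene length.

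**Figure D2:**
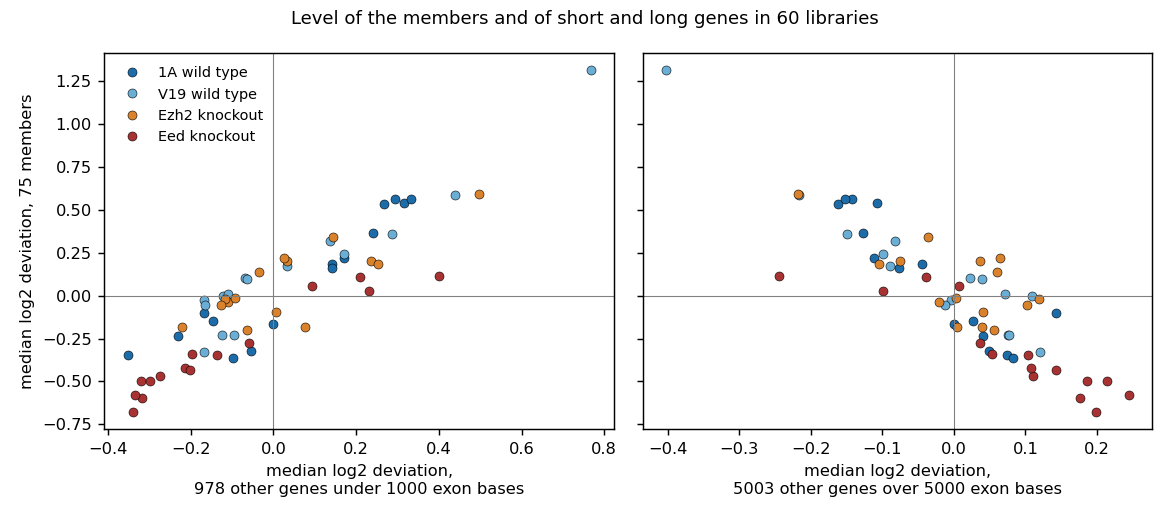
Median log2 deviation of 75 members (vertical axis) against that of 978 short genes (left) and 5003 long genes (right) outside the list, 1 point per library, coloured by line. Members rise with short genes and fall with long genes, and the library at 1.31 is replicate 2 of V19 at 48 h.

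The first comparison asked how ribosomal protein mRNAs respond to the first 12 h of 2i. Of 75 tested members, 38 were higher than at 0 h in 1A wild type and 0 were lower, where 20% of all tested genes were called higher and 20.8% lower (edgeR's quasi-likelihood test, adjusted p under 0.05 over all genes). In V19, 28 members were higher and 0 lower (21.5 and 20.8% of all genes). In Ezh2 knockout the counts were 28 and 0 (26.2 and 23.9%), and in Eed knockout 51 and 0 (25.2 and 25.2%). Without adjustment, at p under 0.05, still 0 members were lower in each line, and DESeq2 also called 0 lower. The median log2 change was 0.43, 0.37, 0.32 and 0.52 in 1A wild type, V19, Ezh2 knockout and Eed knockout, against 0.02, 0.05, 0.05 and 0.02 for all genes. Large and small subunit genes in 1A wild type had medians of 0.41 and 0.44, with 23 of 46 and 15 of 29 higher.

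Other short genes moved by as much. The 978 genes outside the list with under 1000 exon bases had median changes at 12 h of 0.41 in 1A wild type, 0.43 in V19, 0.46 in Ezh2 knockout and 0.58 in Eed knockout. Genes outside the list with 4000 bases or more had medians of -0.10, -0.09, -0.05 and -0.19. Nuclear subunits of oxidative phosphorylation, which are also short and abundant, had 45 of 78 genes higher and 0 lower in 1A wild type with a median of 0.48. Among the 78 mitochondrial ribosomal protein genes 12 were higher and 1 was lower, with a median of 0.15. For both lists the shares of all tested genes in 1A wild type were 20% higher and 20.8% lower.

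The fit was therefore repeated with a per-library trend of level on gene length as an offset, fitted on genes outside the list, with length taken either as the median annotated transcript or as the listed exon bases. With transcript length, 24, 18, 21 and 45 members were higher in 1A wild type, V19, Ezh2 knockout and Eed knockout and 0 were lower in each (21.2, 22, 25.1 and 25.1% of all genes), with medians of 0.31, 0.24, 0.23 and 0.39. All tested genes were then called higher in 19.4, 20.6, 25.1 and 24.2% of cases. With exon length the counts higher were 17, 12, 14 and 28, near or below the shares of all genes (19.8, 20.8, 25.7 and 23.1%) except in Eed knockout, and the medians were 0.11, 0.05, -0.04 and 0.11. Members were then also called lower, 1, 4, 15 and 12 of them (22.1, 23, 26.7 and 25.4% of all genes). The size of the members' change at 12 h thus differed with the measure of length, and in Ezh2 knockout so did the sign of the median.

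**Figure D3:**
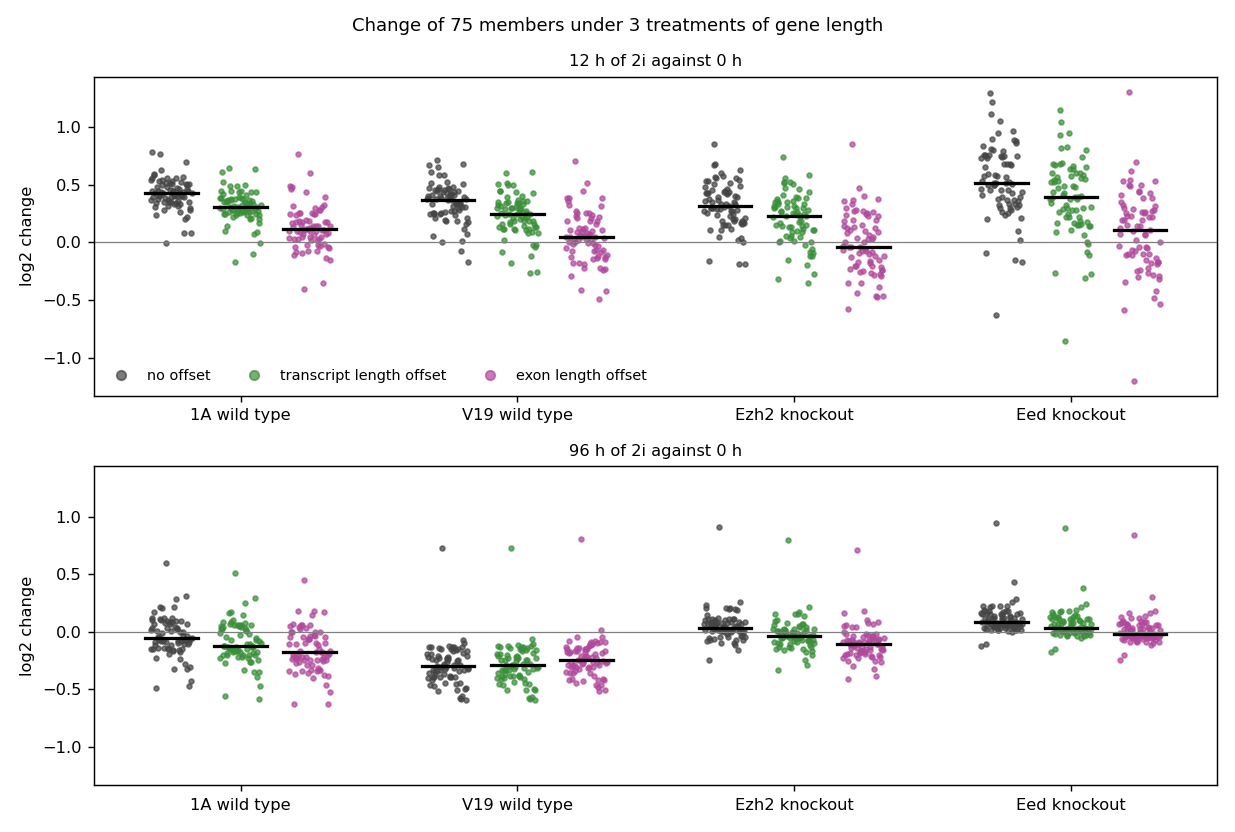
Log2 change of each of 75 members at 12 h (top) and 96 h (bottom) of 2i against 0 h, 1 point per member and a bar at the median, for the fit without offset (grey), with transcript length (green) and with exon length (purple) as offset. At 12 h the median in 1A wild type goes from 0.43 to 0.31 and 0.11, and at 96 h in V19 it is -0.30, -0.29 and -0.24.

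The counts also varied with the libraries in the fit. Fitted on the compared groups alone, 72 members were higher in 1A wild type and 61 in V19, where 28.8 and 27.3% of all genes tested in those fits were higher. These fits also differ in filter, normalization and number of genes tested, and the cause of the change was not tested. Leaving out 1 library of 1A wild type gave 20 without replicate 2 and 12 without replicate 3 at 0 h, and 24, 25 and 14 without replicate 1, 2 or 3 at 12 h. In V19 it gave 12 and 10 without replicate 1 or 3 at 0 h and 16 and 9 without replicate 1 or 3 at 12 h. In Ezh2 knockout it gave 12 without replicate 3 at 0 h, 7 without replicate 1 at 12 h and 49 without replicate 3 at 12 h, the libraries with the highest and lowest share of members. How many of all genes were called in the fits with 1 library left out is not given here.

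A set of 20 members was higher at 12 h in each of the 4 lines without an offset, where 10.4% of all tested genes were. Of these, 8 were higher in each line in all 3 fits, 8 of 75 beside 7.06% of all genes: Rpl3, Rpl5, Rpl10a, Rpl12, Rpl13a, Rps3, Rps6 and Rps20. They were singled out after their values were seen. All but Rpl12 (638) have more listed exon bases, 1026 for Rpl13a to 3446 for Rps20, than the median of 808 for tested members. Their median annotated transcripts have 503 (Rpl13a) to 952 (Rps3) bases. The exon length offset is set by the listed bases, so a call in all 3 fits depends in part on annotation. Rplp2 and Rps10, described below, have 457 and 589 listed bases. Rpl5 binds 5S ribosomal RNA and the p53 regulator Mdm2. Rps6 is the substrate of S6 kinase. Rps3 and Rps20 are neighbours in the head of the small subunit, and Rps3 also acts in DNA repair.

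Rpl12 (chr2:32851724-32854057, GRCm39), a protein at the base of the stalk, went from 1154, 1138 and 1073 CPM at 0 h to 1746, 1776 and 1940.3 CPM at 12 h in 1A wild type, a log2 change of 0.70 ± 0.16 (SE, edgeR adjusted p = 0.00036). In Eed knockout Rpl12 went from 902, 966 and 827 CPM to 1997, 1551 and 1406 CPM (0.88 ± 0.16, edgeR adjusted p = 1e-05). The ranges did not overlap in either line, as for 72 of 75 members in 1A wild type and 59 in Eed knockout, all of them higher. How many of all tested genes had no overlap is not given here, so these counts do not set the members apart. The change of Rpl12 was 0.69 in V19 and 0.63 in Ezh2 knockout. With exon length as offset the 4 changes of Rpl12 were 0.32, 0.32, 0.23 and 0.32 in 1A wild type, V19, Ezh2 knockout and Eed knockout. At 24, 48 and 96 h in 1A wild type Rpl12 was at 1390.4 to 2276, 2152 to 2565 and 1357 to 1452 CPM, still above its 0 h libraries at the last time.

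Rps20 (chr4:3831584-3835655, GRCm39) gave the highest rise of the 8 in each line. In Eed knockout it was at 888, 969 and 812 CPM at 0 h and at 2977, 2095 and 1513 CPM at 12 h, a log2 change of 1.30 ± 0.21 (edgeR adjusted p = 8.3e-07). In 1A wild type Rps20 went from 1179, 1176 and 1039 CPM to 1837, 1894 and 2048 CPM (0.77 ± 0.21, edgeR adjusted p = 0.0021). The 12 h libraries of Eed knockout were far apart, yet none overlapped its 0 h libraries. For Rps20 the exon length offset changes little (1.31 in Eed knockout), because its 3446 listed bases lie near the middle of all genes, and with transcript length the change in Eed knockout was 1.15.

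Rps3 (chr7:99127103-99132916, GRCm39) went from 2256, 2311 and 2044 CPM to 3005, 3205 and 3559 CPM in 1A wild type, and its change was 0.56, 0.59, 0.61 and 0.95 in 1A wild type, V19, Ezh2 knockout and Eed knockout. Rps6 changed by 0.44, 0.47, 0.56 and 0.90 in the same order, from 580.3, 619.8 and 524 CPM to 1394, 1023 and 797 CPM in Eed knockout. For both genes the highest Eed knockout library at 12 h was replicate 1 and the lowest was replicate 3, and the same order held for Rpl5, Rpl12 and Rpl13a. The changes of Rpl5 were 0.50, 0.51, 0.49 and 0.75, those of Rpl10a 0.56, 0.48, 0.51 and 0.69, those of Rpl13a 0.59, 0.61, 0.53 and 0.76, and those of Rpl3 0.41, 0.37, 0.44 and 0.57.

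**Figure D4:**
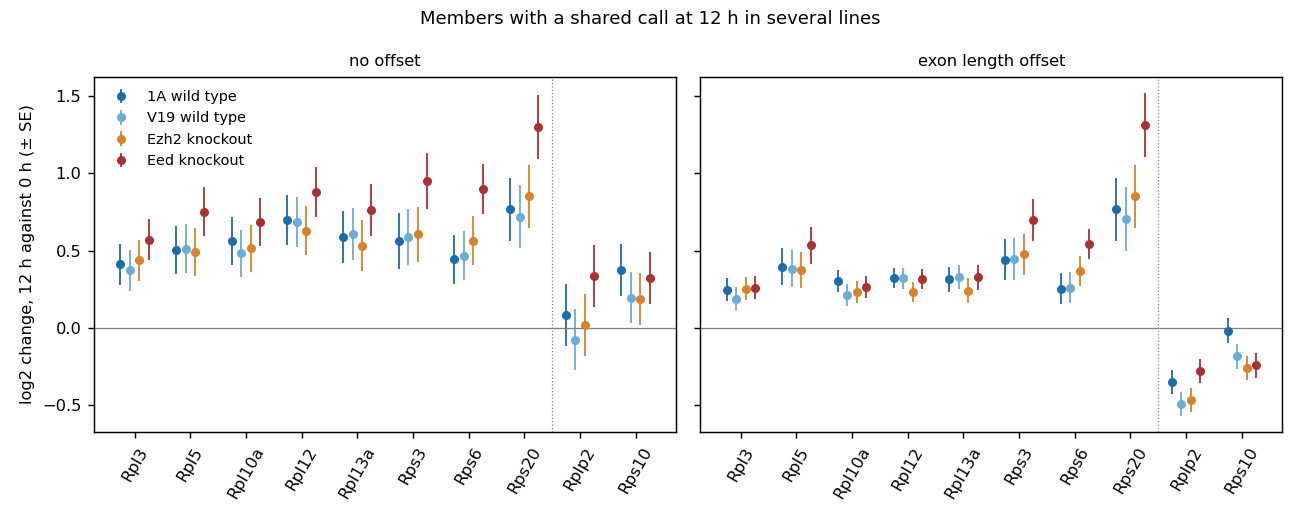
Log2 change at 12 h against 0 h (points, ± SE) of the 8 members higher in each line and of Rplp2 and Rps10 (right of the dotted line), without an offset (left) and with exon length as offset (right), coloured by line. Rps20 in Eed knockout is at 1.30 and 1.31, and Rplp2 in 1A wild type goes from 0.08 to -0.35.

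Other members named by the smallest adjusted p at 12 h were Rpl4 (0.40 ± 0.086 in 1A wild type, edgeR adjusted p = 0.00016), Rps12 (0.78 ± 0.20, edgeR adjusted p = 0.0016) and Rpl10 (0.37 ± 0.10, edgeR adjusted p = 0.0024). Rpl10, whose protein completes the 60S subunit late in assembly, was called in each line without an offset, but its change in 1A wild type was 0.04 with exon length as offset. Rpl23a stood out in Eed knockout, with 339.6, 359 and 303 CPM at 0 h and 1139.9, 690.3 and 516 CPM at 12 h (1.22 ± 0.19, edgeR adjusted p = 5.3e-07), against 0.50 in 1A wild type. Rpl6 changed by 0.75 ± 0.13 in Eed knockout (edgeR adjusted p = 3.7e-06), and Rpl15 by 0.40 ± 0.11 in Ezh2 knockout (edgeR adjusted p = 0.0026). Eed knockout had the highest 12 h change of the 4 lines for 50 of 75 members, but the difference between lines at 12 h was not tested. In the same Eed knockout libraries the summed primitive endoderm markers were 3276 to 3781 CPM at 12 h, lower than at 0 h, and the summed trophoblast markers went from 1608 to 2099 CPM at 0 h to 3024 to 3191 CPM. Their part in the result was not tested.

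Rplp2 was not called at 12 h in any line without an offset. It was at 923, 867 and 770.0 CPM at 0 h and at 932, 881 and 902 CPM at 12 h in 1A wild type, with overlapping libraries, and its changes were 0.08, -0.08, 0.02 and 0.33 in 1A wild type, V19, Ezh2 knockout and Eed knockout. With exon length as offset Rplp2 was called lower in each line (-0.35, -0.50, -0.47 and -0.28), and with transcript length in none (-0.10, -0.27, -0.20 and 0.07). Rps10 behaved in a like way, with 0.37 without an offset and -0.02 with exon length in 1A wild type, and it was called lower in the 3 other lines with exon length. Of 75 members 70 had a change above 0 in each of the 4 lines, and the 5 exceptions were Rplp2, Rpl27, Rpl28, Rpl29 and Rpl31.

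The changes of single members at 12 h were alike between lines. Over 74 members with at least 10000 counts, Pearson's r of the 12 h change was 0.72 to 0.95 between pairs of lines, which share no libraries but do share gene length, base composition and preparation. The highest value, 0.95, was between the knockouts. Within the members the 12 h change had little relation to log2 exon length (r = -0.01 to 0.15) or to the G and C share of the transcripts (r = -0.10 to 0.01). At 96 h the values between lines were lower, from 0.26 to 0.72. The r of the 96 h change with log2 exon length was 0.44 in V19 (rho 0.47), where the shorter members had the lower values, 0.24 in 1A wild type, 0.24 in Ezh2 knockout and 0.03 in Eed knockout.

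By 96 h at most 1 member was called in 3 of the lines, and 11 were lower in V19. In 1A wild type 0 members were higher and 0 lower (25.1 and 23.5% of all genes), with a median of -0.06, where 1 member was higher and 1 lower at an unadjusted p under 0.05 and DESeq2 called 0 higher and 1 lower. In Ezh2 knockout 1 was higher and 0 lower (22.2 and 20.7%), with a median of 0.04, and in Eed knockout 1 was higher and 0 lower (23.3 and 16.4%), with a median of 0.09. In V19, 11 members were lower and 1 was higher (22.7 and 24.8%), with a median of -0.30, while short genes outside the list were at -0.03. The share of V19 members called lower is below that of all genes, and it fell to 6, 1, 2, 6 and 5 without replicate 1 or 2 at 0 h or replicate 1, 2 or 3 at 96 h. It rose to 66 when V19 at 0 and 96 h were fitted alone, where 30.6% of all genes were lower.

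Rpl7a, a large subunit protein, was the clearest of these in V19. It was at 1502, 1679 and 1462 CPM at 0 h and at 1024, 1115 and 1124 CPM at 96 h, a log2 change of -0.51 ± 0.15 (edgeR adjusted p = 0.0032). Rplp2 went from 946, 1122 and 942 CPM to 656, 691 and 664 CPM (-0.58 ± 0.20, edgeR adjusted p = 0.014; 0.067 without replicate 2 at 0 h). Rplp0, to which the stalk proteins bind, went from 2559, 2742 and 2416 CPM to 1893, 1999 and 1972 CPM (-0.40 ± 0.14, edgeR adjusted p = 0.018), and Rpl21 and Rpl34 changed by -0.44 and -0.47. No library of Rpl7a, Rplp2 or Rplp0 in V19 overlapped between the times, and 64 of 75 members were lower without overlap there and 0 higher. The share over all genes is not given here. For Rplp0, Rpl21 and Rpl34 the adjusted p was above 0.05 without replicate 2 at 0 h (0.069, 0.064 and 0.073) and without replicate 1 at 96 h (0.058, 0.065 and 0.053).

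With a length offset, members at 96 h were called lower more often. With exon length 30 were lower in 1A wild type, 40 in V19, 8 in Ezh2 knockout and 0 in Eed knockout (27.8, 27.9, 25.3 and 21.3% of all genes), with medians of -0.18, -0.24, -0.11 and -0.02. With transcript length the counts lower were 3, 22, 0 and 0 (25.5, 25.9, 23.8 and 19.8%), and 0, 1, 1 and 2 were higher (24.1, 22.8, 20.2 and 21.6%). No member was called in each of the 4 lines at 96 h in the fits without an offset or with either length, and 8 were lower in 3 lines with exon length, among them Rpl41, Rpl7a, Rplp2, Rps9, Rps13, Rps18 and Rps26.

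The 96 h response of 1A wild type was compared with that of each other line by an interaction term. For Eed knockout 0 members had a higher and 0 a lower response (14.9 and 12.4% of all genes), with a median difference of 0.15, and with exon length as offset 11 were higher (16.5%). For Ezh2 knockout 0 and 0 differed (5.42 and 6.76%), with a median of 0.10. For V19 0 and 0 differed (0.975 and 0.709%), with a median of -0.25. At an unadjusted p under 0.05 the 3 interactions gave 0, 0 and 1 members, and DESeq2 called 0 in each. When V19 and 1A wild type at 0 and 96 h were fitted alone, 27 members had a lower response in V19, beside 3.97% of all genes.

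Rpl28 (chr7:4795964-4797546, GRCm39) was the 1 member called higher at 96 h without an offset, in 3 of 4 lines. It was at 2.04, 2.78 and 1.85 CPM at 0 h and at 3.88, 4.66 and 4.33 CPM at 96 h in Eed knockout (0.95 ± 0.32, edgeR adjusted p = 0.014). The changes of Rpl28 were 0.73 in V19, 0.91 in Ezh2 knockout and 0.60 in 1A wild type (edgeR adjusted p = 0.035, 0.0073 and 0.12). Its 1437 counts over 60 libraries are a small share of those of other members, and its exons lie for the most part under the gene on the opposite strand. The adjusted p of Rpl28 was above 0.05 without 1 of several single libraries in each of these lines: replicate 1 or 3 at 0 h or replicate 2 or 3 at 96 h of V19 (0.12, 0.13, 0.077 and 0.23), replicate 1 at 0 h of Ezh2 knockout (0.063), and replicate 1 or 3 at 0 h of Eed knockout (0.052 and 0.063).

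The lines were also compared before 2i was added. In Eed knockout 5 members were lower and 0 higher than in 1A wild type at 0 h (23.3 and 26.4% of all genes), with a median of -0.24 against 0.00 for all genes. Rpl4 was at 2533, 2601 and 2368 CPM in Eed knockout and at 3226, 3195 and 3062 CPM in 1A wild type (-0.34 ± 0.086, edgeR adjusted p = 0.00091). Rpl10 was at 606, 632 and 555 CPM against 746, 747 and 722 CPM (-0.30 ± 0.10, edgeR adjusted p = 0.0098), and Rpl6, Rps9 and Rpl7 differed by -0.37, -0.38 and -0.32 (edgeR adjusted p = 0.015, 0.039 and 0.045). The libraries of the 2 lines did not overlap for these 5 genes, which were picked by their adjusted p in the same libraries. This does not set them apart: 34 of 75 members were lower and 1 was higher without overlap. The share over all genes is not given here.

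The number of members called lower in Eed knockout at 0 h varied with the processing. It was 30 with exon length and 8 with transcript length as offset (28.4 and 26.5% of all genes), 3 and 1 without replicate 1 or 3 of Eed knockout, 3 without replicate 1 or 2 of 1A wild type, and 48 with the compared groups alone (29.3% of all genes). In the authors' values normalized by removal of unwanted variation the count was 0 and the median had the opposite sign, 0.16. The markers of primitive endoderm and trophoblast, given above, differed between the same libraries, and their part in the result was not tested. In Ezh2 knockout 0 members were higher and 0 lower at 0 h (11.9 and 10.9%), also at an unadjusted p under 0.05 and by DESeq2, with a median of 0.17, and 41 were higher with the compared groups alone (18.8% of all genes).

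V19 differed from 1A wild type at 0 h in 2 members, both higher (5.01% of all genes; 0 lower, 5.54%). Rpl13 was at 1313, 1467 and 1231 CPM in V19 and at 838, 822 and 741 CPM in 1A wild type (0.74 ± 0.18, edgeR adjusted p = 0.0024). Rpl13 lies at chr8:123829089-123831983 (GRCm39). The 810 tested genes of chromosome 8 outside the list had a median difference of 0.40, with 43.6% higher and 0.988% lower. The median of all members was 0.29, and 63 were higher with the compared groups alone, beside 9.84% of all genes.

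**Figure D5:**
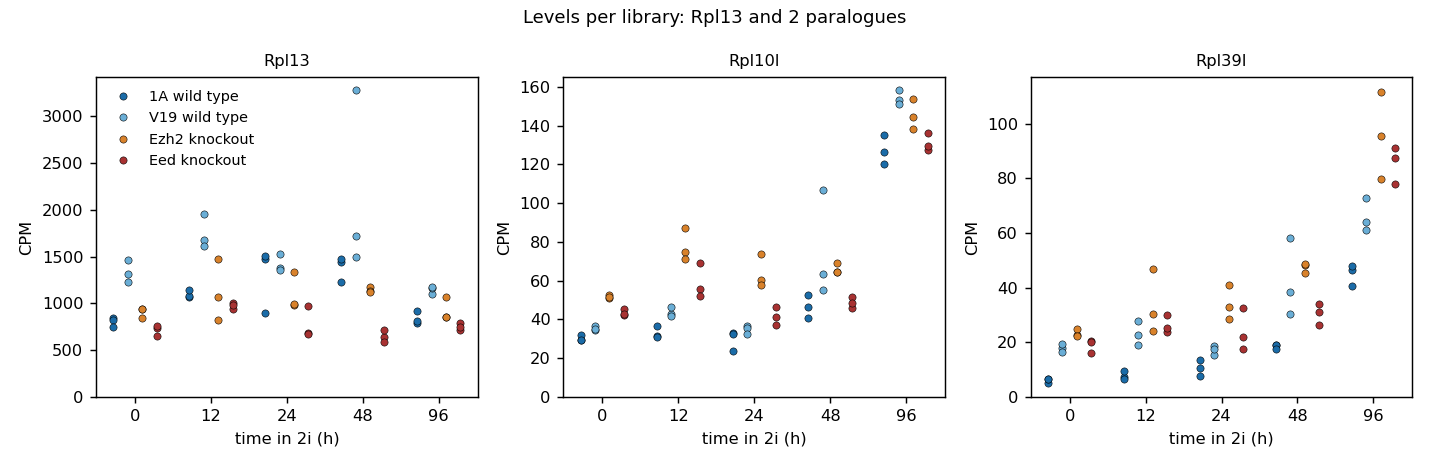
CPM per library against time in 2i (h) of Rpl13 (left) and the paralogues Rpl10l and Rpl39l (middle and right), 1 point per library, coloured by line. V19 lies above 1A wild type for Rpl13 at 0 h, and both paralogues are highest at 96 h in each line.

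Among ribosomal protein genes outside the naming rule, 2 paralogues were higher at 96 h in each line. Rpl10l, an autosomal copy of the X-linked Rpl10 that is known from male germ cells, was at 29.1, 32.0 and 29.4 CPM at 0 h in 1A wild type, at 31.2, 31.0 and 36.3 CPM at 12 h and at 120, 126 and 135 CPM at 96 h. The 96 h changes of Rpl10l were 2.07 in 1A wild type, 2.13 in V19, 1.49 in Ezh2 knockout and 1.59 in Eed knockout. Rpl39l, the copy of Rpl39, was at 5.02, 6.68 and 6.60 CPM at 0 h and at 40.7, 46.6 and 47.8 CPM at 96 h in 1A wild type (2.90 ± 0.24, edgeR adjusted p = 4.7e-15). Rpl39l was also higher at 0 h in the other lines than in 1A wild type, by 1.94 in Ezh2 knockout, 1.65 in Eed knockout and 1.58 in V19.

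Rpl22l1, a paralogue of Rpl22, changed at the early time: its 12 h changes were 0.62, 0.60, 1.02 and 1.38 in 1A wild type, V19, Ezh2 knockout and Eed knockout, and it was at 113, 98.2 and 77.2 CPM at 0 h and 135, 157 and 156 CPM at 12 h in 1A wild type. Rps3a1, a full small subunit protein left out by the rule, rose at 12 h by 0.54, 0.58, 0.59 and 0.89. Fau was not called at 12 h in any line. Rpl7l1, a nucleolar relative of Rpl7, fell at 12 h by 0.33, 0.26, 0.27 and 0.25. The list also holds Rsl24d1, Rsl1d1 and Mrto4, so it is not made up of ribosomal protein genes alone. Of its 16 genes, 3 were higher and 2 lower at 12 h in 1A wild type (20 and 20.8% of all genes), and 2 and 4 at 96 h (25.1 and 23.5%). Reads shared between a paralogue and its parent gene may be split, so these levels are uncertain.

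Without a length offset, the factors that build ribosomes had medians below 0 at 12 h, where those of the members were above 0. Their changes with a length offset are not given here, and the part of gene length was not tested. As described above, the members' medians shrank with exon length as offset. Between libraries this list rose with the members (Pearson's r = 0.39 over 60 libraries, and 0.76 for deviations from the group means). Of 58 ribosome biogenesis factors 26 were lower and 5 higher in 1A wild type, 28 and 3 in V19, 33 and 4 in Ezh2 knockout and 31 and 5 in Eed knockout, with medians of -0.17, -0.17, -0.24 and -0.24. Of all tested genes, 20.8, 20.8, 23.9 and 25.2% were lower in the same order of lines, and 20, 21.5, 26.2 and 25.2% were higher. Bysl, needed for the small subunit, changed by -0.71 in 1A wild type (edgeR adjusted p = 6.4e-14), and Mybbp1a by -0.77. Nop56, a core protein of box C/D particles, went against them with 0.44. At 96 h 40 biogenesis factors were lower and 0 higher in 1A wild type (23.5 and 25.1% of all genes), and 49 and 0 in V19 (22.7 and 24.8%).

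RNA polymerase I and its factors showed the same direction in part. In 1A wild type 7 of 18 were lower and 1 higher at 12 h (20.8 and 20% of all genes), among them the initiation factor Rrn3 (-0.68) and the subunit Polr1b (-0.75). Among 20 genes of growth signalling 11 were lower and 3 higher (again beside 20.8 and 20% of all genes), led by Myc, whose log2 change at 12 h was -4.00 in 1A wild type, -3.97 in V19, -3.82 in Ezh2 knockout and -2.98 in Eed knockout. At 0 h in Eed knockout 44 of 58 biogenesis factors and 11 of 18 polymerase I genes were lower than in 1A wild type and 0 of either were higher (23.3 and 26.4% of all genes).

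Translation factors and other 5′ TOP genes, whose start sequences were not searched as a list, had calls in both directions at 12 h in 1A wild type. Over the 60 libraries their level followed that of the members (Pearson's r = 0.91, and 0.98 for deviations from the group means). Of these 24 genes, 4 were higher and 2 lower at 12 h in 1A wild type (20 and 20.8% of all genes), with a median of 0.09. The elongation factor Eef1a1 rose by 0.43 and the helicase Eif4a2 by 1.12, while the poly(A)-binding protein Pabpc1 changed by -0.41. Larp1, the repressor of TOP mRNA translation, fell in each line at 12 h, with -0.91 in 1A wild type, and was at -1.16 at 96 h. At 96 h 9 of the 24 were lower and 1 higher in 1A wild type (23.5 and 25.1% of all genes).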

How the data were processed

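Polyadenylated RNA of 60 libraries (20 groups of 3) was sequenced as single reads on 2 flowcells, which were merged, per the labels' protocols. The deposited gene counts carry the column layout of featureCounts. STAR 2.7.10b, featureCounts 2.0.3, MultiQC 1.14 and DESeq2 are named, with builds GRCm39 and mm39, per the submitters' processing notes. Strand and multimapper options are not given in the sources used here. The authors also deposited counts normalized by removal of unwanted variation and rounded, treated here as a score, with settings not given in the sources used here. A table of transformed values was not used.

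The members and lists were chosen with earlier results of these data known. Raw counts were filtered with filterByExpr (minimum count 10, minimum total 15), scaled by TMM, and fitted over all 20 groups with 40 residual degrees of freedom by edgeR 4.0.16's quasi-likelihood test in R 4.3.3. There were 14 comparisons, each with Benjamini-Hochberg adjustment over 15083 genes and a threshold of 0.05. Log2 levels per library and the length trends use a prior count of 2. Log2 changes are those of the edgeR fit, with its default prior count. Length offsets are per-library lowess trends (span 0.3) on genes outside the members. Alternatives used DESeq2 1.42.0, RLE factors, other filters, compared groups alone, each library left out, and limma 3.58.1 on log2 of the deposited score plus a pseudocount of 1. The fitting scripts were tested on simulated data with 200 changed genes.

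Genes were named by rule: up to 5 members per direction and comparison with the smallest adjusted p, up to 5 called against the sign of the median, the 5 highest and lowest per kilobase, the 5 with the largest and smallest range over groups, Ezh2, Eed, the paralogue list, and up to 3 called genes of each other list. The members shared by 4 lines, and the sequences, were chosen after their values were seen. Replicate pairs differed by more than sampling noise (60 pairs, chi-square per degree of freedom 1.13 to 28.4), so each library counts once. Replicate numbers did not pair the samples. Some members are not reported here.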

Additional observations from a re-analysis of the deposited data

Results flagged for a closer look

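At 96 h the median log2 level of the members in the 3 Eed knockout libraries was 0.034 to 0.196 above the mean of that line at 0 h, while the 3 V19 libraries were at -0.359 to -0.257 against their own 0 h mean. The lines differed by 0.41 in this median, and the difference was not tested. In Eed knockout the 96 h libraries (-0.436 to -0.274) overlapped the 0 h libraries (-0.599 to -0.343), Rpl28 was the 1 member called, and the median change of 0.09 became -0.02 with exon length and -0.0571 with length and base composition as offset, the sign of V19.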

How the results depend on the processing

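The TMM factors computed without the members changed none of the 42 counts and medians of members by more than 1.5 times or beyond the spread, and a fit with replicate block did not either (38, 28, 29 and 51 members higher at 12 h in 1A wild type, V19, Ezh2 knockout and Eed knockout). Correlations of same-numbered samples were -0.147 to 0.112, and 2 of 33 pairs were over 0.1. The cause of the differences below was not tested. Shares of all genes called are given above for the edgeR fit over all groups, without an offset and with exon or transcript length. They are also given for several comparisons with the compared groups alone. In the other fits the counts of members cannot be set against all genes. DESeq2 gave 18 members higher in V19 at 12 h, 1 lower in 1A wild type at 96 h and 3 lower in Eed knockout at 0 h, RLE factors gave 1 lower in 1A wild type at 96 h, and a 1 CPM filter gave 1 and 3 for the last pair. The authors' normalized values gave 1 lower and a median of 0.63 in Eed knockout at 12 h, 0 higher and 4 lower in V19 at 96 h, and 0 lower with a median of 0.16 in Eed knockout at 0 h, where Rpl4, Rpl10, Rpl6 and Rpl7 turned to 0.0936, 0.0708, 0.0143 and 0.103.

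With exon length as offset, members higher and lower at 12 h were 17 and 1 (median 0.11), 12 and 4 (0.0466), 14 and 15 (-0.0375) and 28 and 12 (0.11) in 1A wild type, V19, Ezh2 knockout and Eed knockout. At 96 h 2 were higher and 30 lower (-0.18) in 1A wild type, 40 lower in V19, 0 higher and 8 lower in Ezh2 knockout and 3 higher in Eed knockout. At 0 h 30 were lower in Eed knockout and the V19 median was 0.16, the Eed interaction had 11 higher, and the V19 interaction a median of -0.0938. With length and base composition the 12 h values were 20 and 1 (0.15), 15 and 3 (0.0582), 16 and 15 (0.0166) and 32 and 8 (0.13). The 96 h values were 2 and 27 (-0.17), 34 lower, 16 lower, and 3 and 1 (-0.0571). At 0 h 33 were lower in Eed knockout and the V19 median was 0.14, the Eed interaction had 10 higher and 1 lower, the V19 interaction a median of -0.0881, and Rpl10 at 12 h turned to -0.0084 in 1A wild type and -0.0157 in V19. With transcript length 24 were higher (0.31) in 1A wild type and 18 in V19 at 12 h, the Eed knockout median was 0.39, 3 and 22 were lower at 96 h in 1A wild type and V19, 2 higher in Eed knockout, and 8 lower in Eed knockout at 0 h.

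Without a filter 69, 61 and 52 were higher at 12 h in 1A wild type, V19 and Ezh2 knockout. At 96 h 2 were higher and 8 lower in 1A wild type, 47 lower in V19, 2 higher in Ezh2 knockout and 4 higher in Eed knockout. At 0 h 34 were lower in Eed knockout, 7 higher in Ezh2 knockout and 27 higher in V19, and the Eed and V19 interactions had 5 higher and 5 lower. With the compared groups alone the values were 72 and 61 higher at 12 h in 1A wild type and V19, 6 higher and 12 lower, 66 lower, 3 higher and 1 lower, and 11 higher at 96 h in the 4 lines, 1 higher and 48 lower, 41 higher and 63 higher at 0 h in Eed knockout, Ezh2 knockout and V19, 8 higher and 1 lower in the Eed interaction and 27 lower in the V19 interaction. A fit chosen after the values were seen omitted the 12 h libraries of Ezh2 and Eed knockout, the 48 h libraries of V19, and from the 24 h libraries of 1A wild type the first. It gave 68 and 56 higher at 12 h in the wild types, 2 higher and 5 lower, 45 lower, 2 higher and 3 higher at 96 h, 27 lower, 2 higher and 18 higher at 0 h, 2 higher in the Eed interaction and 1 lower in the V19 interaction.

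With each library left out in turn, members higher at 12 h numbered 12 to 30 in 1A wild type, 9 to 30 in V19, 7 to 49 in Ezh2 knockout and 37 to 50 in Eed knockout, where 0 to 3 were lower, 3 of them without replicate 3 at 12 h. At 96 h 0 to 3 were lower in 1A wild type, 0 to 1 higher and 1 to 8 lower in V19, and 0 to 1 higher in each knockout, and 1 to 5 were lower in Eed knockout at 0 h. Rpl28 had 1437 counts over 60 libraries, and whether its lost calls come from depth was not tested.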
